A study of Canis lupus familiaris with 2 samples.

Results

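The 9 genes described here are *CALB1*, *CALB2*, *PVALB*, *CABP5*, *SCGN*, *NRGN*, *VSNL1*, *HPCAL1* and *PRKCA*, whose protein products are used as antibody markers of retinal cell types or belong to the same families. They were taken by name from the gene lists of both libraries. All 9 are among the 34981 genes listed for dog N350, and 8 are among the 19947 genes listed for dog N354, where *PVALB* is not listed. Both dogs were male, normal or wild-type in genotype and 40 weeks old, and neither was treated. Punches of neuroretina, the sensory part of the retina without the pigment epithelium, were dissociated into single cells, and droplet libraries that read the 3′ end of transcripts were made, 1 from each dog.

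Calcium-binding proteins of the EF-hand family bind calcium in a helix-loop-helix motif. Buffers such as calbindin, calretinin and parvalbumin take up calcium that enters through channels, whereas sensors such as the visinin-like and CaBP proteins change shape on binding and act on channels and enzymes. Neurogranin carries no EF hand and binds calmodulin, itself an EF-hand sensor, when calcium is low, and protein kinase C alpha is activated by calcium and diacylglycerol. In the mammalian retina these proteins are classical stains because each is abundant in few of the neuron types. The pairings taken here are calbindin and parvalbumin with horizontal cells, calretinin with amacrine and ganglion cells, and CaBP5 and secretagogin with bipolar cells. Protein kinase C alpha is paired with rod bipolar cells. These pairings are not a full list of the cells each antibody stains.

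The N350 library held 8900 cells and 24030707 unique molecular identifiers (UMIs, each counting 1 captured RNA molecule), and the N354 library held 4392 cells and 9711202 UMIs. The libraries shared 6 cell barcodes. Cells were assigned to 12 classes by gates on the raw UMIs of other marker genes, none of them a member, which placed 7354 cells of N350 and 4078 of N354 in 1 class each. The summed gate markers of each class with cells read higher inside it than in the other classes of the same dog. This follows from the gates, which admit cells by these same markers. The sums are therefore no independent check of the classes. They were lowest in glycinergic-like neurons, at 10.1 and 10.6 UMIs per 10000 UMIs of all genes (0.185 and 0.119 elsewhere), and closest to the other classes in OFF bipolar cells of N354, at 44.5 against 11.3. Rods were the largest class, with 5000 and 2974 cells, and horizontal cells numbered 132 and 23, ON bipolar cells (rod bipolar cells included) 258 and 249, OFF bipolar cells 46 and 28, GABAergic amacrine cells 164 and 28, and glycinergic-like neurons 233 and 23. Ganglion-like neurons were found in N350 only, as 15 cells, and no cell of N354 passed that gate, for which 8 of 10 marker genes are listed there. Their median share of mitochondrial UMIs was 23.2%, the highest of any class, and its part in their values was not tested. Markers of pigment epithelium (*RPE65*, *LRAT*, *BEST1*, *TTR*) read between 0 and 6 UMIs each in a whole library. Levels below give the UMIs of a gene per 10000 UMIs of a class in a dog, with the cells of the class pooled, with exact Poisson 95% intervals in parentheses that cover counting error only. The dogs were counted on different gene lists, so dog and gene list cannot be told apart, and levels were compared between classes within a dog. Any SD over the dogs given below therefore holds differences of animal and of gene list together.

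*CALB1* (calbindin) marked horizontal cells in both dogs. Horizontal cells of N350 read 74.2 (72.7 to 75.7) and those of N354 read 73.2 (69.5 to 77.0), a mean of 73.7 ± 0.720 (SD, n = 2 dogs). Glycinergic-like neurons came next with 3.75 (3.39 to 4.14) and 6.18 (4.52 to 8.24), so that horizontal cells exceeded the next class by a ratio of 19.8 (17.9 to 22.0) in N350 and 11.8 (8.83 to 16.2) in N354. Horizontal cells, 1.48% of the cells of N350 and 0.524% of those of N354, held 90.8% (90.2 to 91.4) and 93.9% (92.6 to 94.99) of the *CALB1* UMIs of all gated cells. All other classes with at least 20 cells read at most 0.564 in N350, and in N354 at most 1.09, in GABAergic amacrine cells.

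*PVALB* (parvalbumin), which could be read in N350 only, was also highest in horizontal cells, at 65.9 (64.5 to 67.3). It was not restricted to them. GABAergic amacrine cells read 16.5 (15.9 to 17.2), 25.5 (22.9 to 28.4) times the level of rods, and the 15 ganglion-like neurons read 27.9 (26.0 to 29.8), with at least 1 UMI in each of the 15 cells. Of the 844 UMIs in ganglion-like neurons, 409 came from 1 cell, and the median was 5 per cell. The ratio of horizontal cells to GABAergic amacrine cells was 3.99 (3.804 to 4.18). Glycinergic-like neurons, in which *CALB1* was second highest, held 14 UMIs of *PVALB*, a level of 0.134 (0.0734 to 0.225).

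*CALB2* (calretinin), whose antibody is known for amacrine and ganglion cells, was highest in horizontal cells too, in both dogs, and not in GABAergic amacrine cells or glycinergic-like neurons. Horizontal cells read 6.15 (5.72 to 6.59) in N350 and 67.5 (64.0 to 71.2) in N354. GABAergic amacrine cells read 2.26 (2.02 to 2.53) and 10.2 (8.92 to 11.5), and glycinergic-like neurons 1.92 (1.66 to 2.20) and 18.8 (15.8 to 22.2). These 2 classes took different places in the dogs: in N350 the ratio of GABAergic amacrine cells to glycinergic-like neurons was 1.18 (0.985 to 1.42), an interval that includes 1. The level of glycinergic-like neurons of N350 fell to 0.722 with a stricter gate and to 1.21 with at most 10% of UMIs on mitochondrial genes. In N354 glycinergic-like neurons were higher by a ratio of 1.85 (1.49 to 2.29). Their 140 UMIs were uneven over the 23 cells, of which 15 held 0 and the highest held 48. The interval does not cover this spread between cells. Ganglion-like neurons of N350 read 0.825 (0.534 to 1.22), from 25 UMIs in 3 cells. The remaining classes with at least 20 cells read at most 0.178 in either dog. The mean over the dogs in horizontal cells was 36.8 ± 43.4 (SD, n = 2 dogs), a spread wider than the mean itself, whereas the order of horizontal cells above every other class was the same in each dog.

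**Figure D1:**
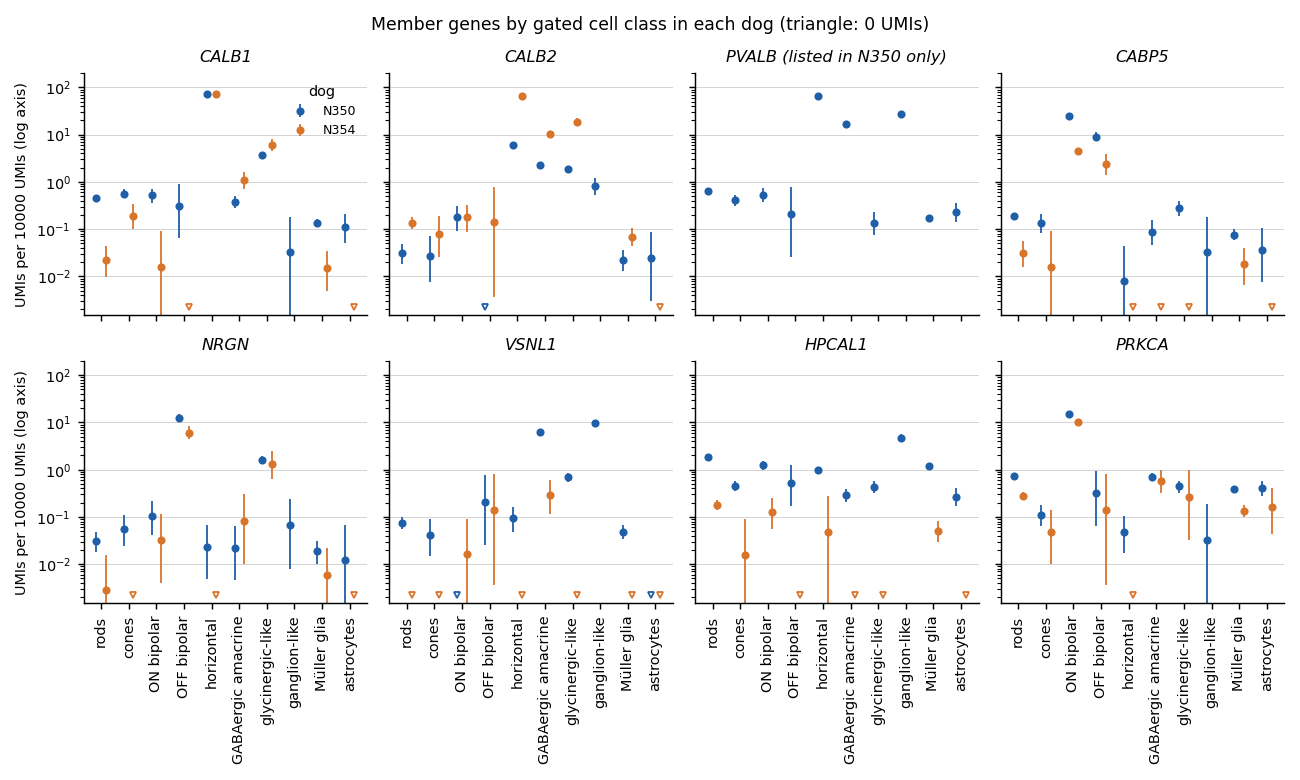
Levels of the 8 members with UMIs in 10 gated classes, as UMIs per 10000 UMIs of all genes on a log axis, with points for dog N350 and dog N354, exact Poisson 95% intervals as bars and triangles where a class held 0 UMIs. *CALB1* stands at 74.2 and 73.2 in horizontal cells, *PRKCA* and *CABP5* stand highest in ON bipolar cells, *NRGN* in OFF bipolar cells, and *HPCAL1* is spread over most classes of N350.

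Within single horizontal cells the 3 buffers were found together. In N350, 128 of the 132 cells held *CALB1*, 126 held *PVALB* and 99 held *CALB2*, and all 99 of the last also held both of the others. The median depth of these 99 cells was 13620 UMIs and that of the other 33 was 944, so detection moved with depth. The UMIs per cell ran from 0 to 510 for *CALB1* with a median of 63.5, from 0 to 328 for *PVALB* with a median of 48.5, and from 0 to 30 for *CALB2* with a median of 4. In N354 all 23 horizontal cells held both *CALB1* (2 to 191 UMIs, median 47) and *CALB2* (2 to 145 UMIs, median 64). When each cell was thinned to 1000 UMIs, 99.1% (95.03 to 99.98) of the horizontal cells of N350 were expected to hold *CALB1*, 97.8% (92.9 to 99.6) *PVALB* and 43.6% (34.1 to 53.3) *CALB2*, with 22 shallower cells left out. Rods thinned in the same way were expected to hold them in 2.49%, 3.75% and 0.222% of cells. As counted, rods held them in 3.88%, 5.62% and 0.38% of cells at a median of 1083 UMIs, against 97.0%, 95.5% and 75.0% of horizontal cells at a median of 9648.5.

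**Figure D2:**
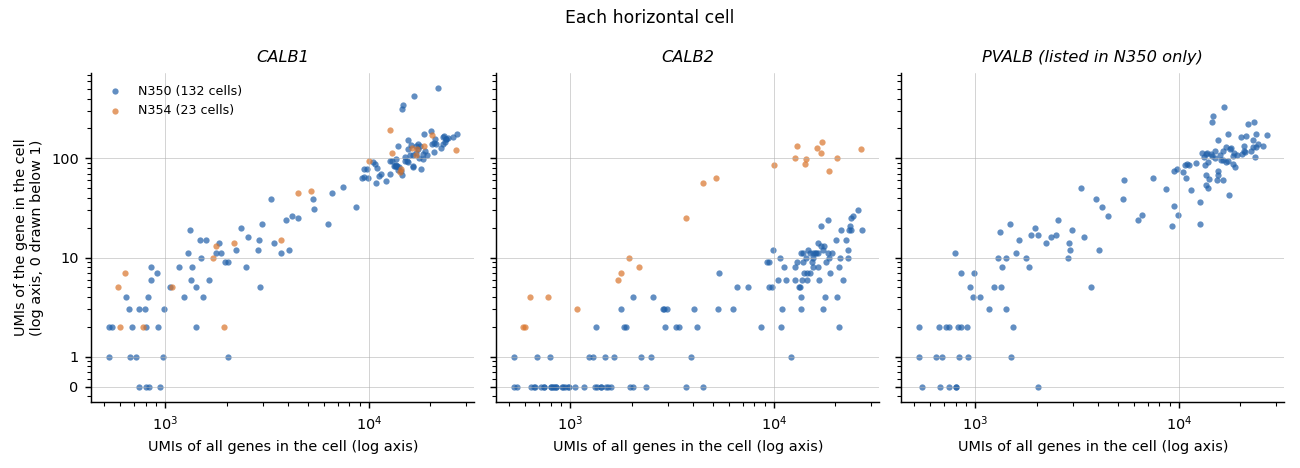
UMIs of *CALB1*, *CALB2* and *PVALB* in each horizontal cell (132 of N350, 23 of N354) against the UMIs of all genes in that cell, both on log axes, with a count of 0 drawn below 1. All 3 genes rise with the depth of the cell. In N350 *CALB2* (at most 30 UMIs in a cell) lies below the other 2 genes, and in N354 it reaches 145 UMIs, beside 191 for *CALB1*.

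The ratio of *CALB1* to *PVALB* UMIs differed between some classes of N350. It was 1.13 (1.09 to 1.16) in horizontal cells, 1.37 (0.968 to 1.94) in cones, 0.972 (0.593 to 1.59) in ON bipolar cells, 0.787 (0.5997 to 1.03) in Müller glia and 0.694 (0.594 to 0.811) in rods, all at levels under 1 UMI per 10000 for either gene outside horizontal cells. It was 27.9 (16.4 to 51.6) in glycinergic-like neurons, 0.0230 (0.0171 to 0.0302) in GABAergic amacrine cells and 0.00118 (3.00e-05 to 0.00662) in ganglion-like neurons. The intervals of these last 3 classes lay apart from that of horizontal cells, whereas those of cones and ON bipolar cells included its value and those of Müller glia and rods lay below it. The part of free RNA in the low levels was not tested.

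The bipolar markers were read next. *PRKCA*, the gene of the kinase that stains rod bipolar cells, was highest in ON bipolar cells in both dogs, at 14.9 (14.0 to 15.9) in N350 and 10.3 (9.50 to 11.1) in N354, 12.6 ± 3.27 (SD, n = 2 dogs). The next class was rods in N350, with 0.721 (0.656 to 0.791), and GABAergic amacrine cells in N354, with 0.588 (0.321 to 0.986), so that the ratio of ON bipolar cells to the next class was 20.7 (18.5 to 23.1) and 17.5 (10.4 to 32.2). OFF bipolar cells read 0.316 (0.0652 to 0.925) and 0.142 (0.00361 to 0.794), from 3 UMIs and 1 UMI. At 1000 UMIs a cell, 66.5% (60.2 to 72.4) of the ON bipolar cells of N350 and 59.4% (52.8 to 65.8) of those of N354 were expected to hold *PRKCA*, against 3.603% (0.188 to 15.8) and 2.74% (0.0159 to 18.4) of OFF bipolar cells. As counted, 77.1% and 78.7% of ON bipolar cells held it, at medians of 2408.5 and 2581 UMIs, and 6.52% and 3.57% of OFF bipolar cells, at medians of 1592.5 and 2413.

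*CABP5*, a calmodulin-like sensor of calcium channels, was also highest in ON bipolar cells and second highest in OFF bipolar cells in both dogs. ON bipolar cells read 24.4 (23.3 to 25.7) in N350 and 4.60 (4.08 to 5.17) in N354, and OFF bipolar cells 9.07 (7.25 to 11.2) and 2.42 (1.41 to 3.88). The ratio of ON to OFF bipolar cells was 2.70 (2.17 to 3.39) and 1.90 (1.17 to 3.31). Outside bipolar cells the level was at most 0.278 in N350 (glycinergic-like neurons) and at most 0.0312 in N354 (rods), and horizontal cells held 1 UMI in N350 and 0 in N354, where a count of 0 allows a level of up to 0.146.

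*NRGN* (neurogranin) had been paired with ganglion-like neurons and GABAergic amacrine cells, and was low in both. It was highest in OFF bipolar cells, at 12.7 (10.49 to 15.1) in N350 and 6.13 (4.43 to 8.25) in N354, 9.39 ± 4.62 (SD, n = 2 dogs). Glycinergic-like neurons came second with 1.64 (1.40 to 1.90) and 1.34 (0.644 to 2.47), and the ratio of OFF bipolar cells to them was 7.72 (6.06 to 9.81) and 4.56 (2.26 to 10.2). ON bipolar cells read 0.104 (0.0417 to 0.214) and 0.0322 (0.00390 to 0.116), and GABAergic amacrine cells 0.0219 (0.00452 to 0.0640) and 0.0840 (0.0102 to 0.303), from 3 and 2 UMIs. Ganglion-like neurons of N350 held 2 UMIs in 15 cells. At least 1 UMI of *NRGN* was found in 31 of the 46 OFF bipolar cells of N350 and in 21 of the 28 of N354. At 1000 UMIs a cell these shares were expected to be 55.3% (37.8 to 71.8) and 48.3% (28.1 to 69.0), against 0.716% (0.0681 to 2.78) and 0.368% (0.00547 to 2.26) of ON bipolar cells.

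*SCGN* (secretagogin), an EF-hand protein that stains cone bipolar cells in several mammals, is listed for both dogs and held 0 UMIs in all 8900 cells of N350 and all 4392 cells of N354. That count of 0 allows a level of up to 0.00125 in N350 and 0.00309 in N354 over all cells. In OFF bipolar cells alone it allows up to 0.316 and 0.427, and in ON bipolar cells up to 0.0444 and 0.0483, limits far below the levels of *NRGN* in OFF bipolar cells. Whether the listed gene model covers the 3′ end of the canine transcript was not tested.

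*VSNL1* (visinin-like 1), a neuronal calcium sensor, was highest in GABAergic amacrine cells of N350 among the classes with at least 20 cells, at 6.28 (5.86 to 6.71). Glycinergic-like neurons followed with 0.690 (0.540 to 0.869), a ratio of 9.09 (7.15 to 11.7), and the 15 ganglion-like neurons read 9.84 (8.75 to 11.02), of which 144 of the 298 UMIs came from 1 cell. In N354 the whole library held 10 UMIs of *VSNL1*. GABAergic amacrine cells held 7 of them, a level of 0.294 (0.118 to 0.605), and the ratio to the next class, OFF bipolar cells with 1 UMI, was 2.06 (0.265 to 92.9). Only 63.1% of the *VSNL1* UMIs of N350 lay in gated cells, the lowest share of any member there, and 21.2% lay in cells that passed no gate. Another 15.7% lay in cells that passed more than 1 gate, the highest such share of any member there. Those cells, 1.80% of the cells of N350, were left out of the classes.

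*HPCAL1* (hippocalcin-like 1), a sensor of the same family with no class set for it, was spread over many classes. In N350 it read 2.31 (1.66 to 3.12) in endothelial cells and pericytes (33 cells), 1.84 (1.73 to 1.95) in rods, 1.26 (1.01 to 1.56) in ON bipolar cells, 1.18 (1.10 to 1.26) in Müller glia and 0.975 (0.811 to 1.16) in horizontal cells. Vascular cells and rods did not differ beyond counting error, with a ratio of 1.25 (0.898 to 1.70), nor did ON bipolar cells and Müller glia. OFF bipolar cells read 0.527, from 5 UMIs, and cones, glycinergic-like neurons, GABAergic amacrine cells and astrocytes read between 0.270 and 0.461. Ganglion-like neurons read highest of all, at 4.79 (4.04 to 5.63), with 145 UMIs in 10 of 15 cells, of which 47 came from 1 cell, and a median of 1 per cell. In N354 the library held 93 UMIs, 64 of them in rods, and the order was rods at 0.182 (0.140 to 0.232), ON bipolar cells at 0.129 (0.0556 to 0.254) and Müller glia at 0.0510 (0.0297 to 0.0816), with the interval of the ratio of each neighbouring pair including 1.

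**Figure D3:**
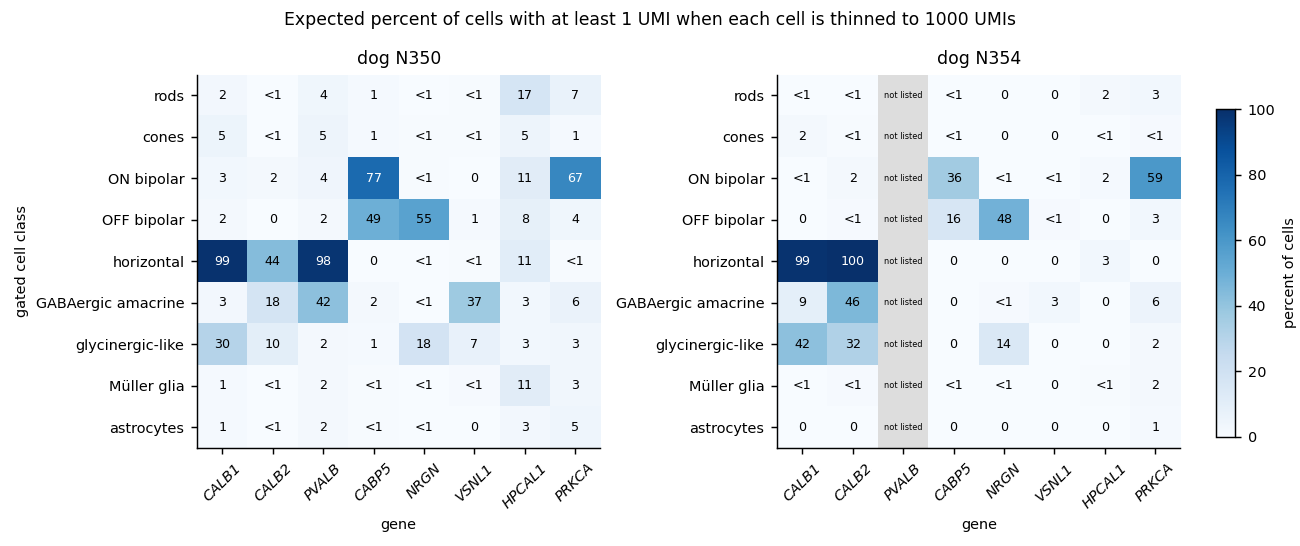
Expected percent of cells with at least 1 UMI of each member when every cell with at least 1000 UMIs is thinned to that number, by gated class and dog, with white for 0% and dark blue for 100% (grey: gene not listed). Horizontal cells stand at 99.1% and 98.6% for *CALB1*, ON bipolar cells at 66.5% and 59.4% for *PRKCA*, and OFF bipolar cells at 55.3% and 48.3% for *NRGN*.

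To compare classes over both dogs, the UMIs of each class were added up in each dog for the 9 classes with at least 20 cells in each dog, and tested with edgeR's quasi-likelihood test with the dog as a block and Benjamini-Hochberg adjustment over 12066 genes. A gene is called where the adjusted p is under 0.05. *PVALB* and *SCGN* could not enter, so 7 members were tested. The p-values rest on 2 animals with 1 library each, and where most classes are near 0 the fitted fold depends on the small prior count that edgeR adds. The test gives no standard error. SE here is the absolute log2 fold change divided by the square root of the F value of the test, so it depends on the same prior count.

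In horizontal cells against the mean of the other classes, 2 of 7 members were called higher, where 15.7% of all genes were. They were *CALB1*, with a log2 fold change of 8.14 (SE 0.29, adjusted p = 4.45e-24 by edgeR), and *CALB2*, with 7.01 (SE 0.21, adjusted p = 1.38e-26). *CABP5*, *NRGN* and *PRKCA* were called lower there, where 10.6% of all genes were.

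In ON bipolar cells 3 of 7 members were called higher, against 11.3% of all genes, and 0 of 7 lower, against 5.88%. *CABP5* rose by 7.42 on the log2 scale (SE 0.17, adjusted p = 6.35e-31 by edgeR), *PRKCA* by 5.94 (SE 0.16, adjusted p = 1.89e-28) and *HPCAL1* by 1.14 (SE 0.29, adjusted p = 0.00335). That rise of *HPCAL1* weighs each class equally. Against the pooled cells of the other classes, ON bipolar cells of N350 read 1.06 times their *HPCAL1* level (0.843 to 1.32). For N354 the same ratio came to 1.29 (0.539 to 2.66), from 8 UMIs in ON bipolar cells. Both intervals include 1. In OFF bipolar cells 0 of 7 were called lower, against 2.43% of all genes, and 2 of 7 higher, against 4.47%: *NRGN* by 7.51 (SE 0.28, adjusted p = 8.80e-23 by edgeR) and *CABP5* by 5.45 (SE 0.26, adjusted p = 2.57e-19). Set directly against each other, ON and OFF bipolar cells differed in 3 of 7 members, where 5.64% of all genes were called in either direction. *PRKCA* was higher in ON bipolar cells by 6.32 (SE 0.45, adjusted p = 2.18e-13 by edgeR) and *CABP5* by 1.75 (SE 0.26, adjusted p = 9.49e-06), whereas *NRGN* was lower there, with -6.63 (SE 0.47, adjusted p = 2.18e-13).

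In GABAergic amacrine cells 3 of 7 members were called higher, against 20.9% of all genes. *VSNL1* rose by 6.78 on the log2 scale (SE 0.29, adjusted p = 3.64e-21 by edgeR) and *CALB2* by 4.40 (SE 0.25, adjusted p = 1.05e-17), while *PRKCA*, at 0.78 (SE 0.26, adjusted p = 0.0204), did not hold with DESeq2 (adjusted p = 0.0510). *CABP5* and *HPCAL1* were called lower, where 7.91% of all genes were. *NRGN* had a log2 fold change of -1.64 (SE 0.69) that did not pass (adjusted p = 0.0749 by edgeR). In glycinergic-like neurons 0 of 7 were called lower, against 4.65% of all genes, and 4 of 7 higher, against 14.2%: *NRGN* by 4.55 (SE 0.31, adjusted p = 5.01e-15 by edgeR), *CALB2* by 4.51 (SE 0.26, adjusted p = 6.62e-17), *CALB1* by 3.11 (SE 0.42, adjusted p = 2.36e-07) and *VSNL1* by 3.05 (SE 0.45, adjusted p = 1.07e-06). The call of *VSNL1* rests on N350, since glycinergic-like neurons of N354 held 0 UMIs of it, and with DESeq2 its adjusted p was 0.649.

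Between glycinergic-like neurons and GABAergic amacrine cells 3 of 7 members were called, where 6.55% of all genes were called in either direction. *NRGN* was higher in glycinergic-like neurons by 5.49 (SE 0.58, adjusted p = 6.02e-09 by edgeR) and *CALB1* by 2.77 (SE 0.65, adjusted p = 0.00427, and 0.441 with DESeq2), and *VSNL1* was lower, at -3.31 (SE 0.43, adjusted p = 6.86e-07, and 0.698 with DESeq2). *CALB2* did not separate these classes, with 0.09 (SE 0.32, adjusted p = 0.968 by edgeR). Between horizontal and GABAergic amacrine cells 6 of 7 members were called, where 19.7% of all genes were called in either direction. *CALB1* was higher in horizontal cells by 7.24 (SE 0.66, adjusted p = 3.35e-11 by edgeR), *CALB2* by 2.32 (SE 0.32, adjusted p = 3.87e-07) and *HPCAL1* by 1.93 (SE 0.43, adjusted p = 0.000739). *PRKCA*, *VSNL1* and *CABP5* were lower in horizontal cells, at -4.01, -5.89 and -3.15, and *VSNL1* and *CABP5* were not called with DESeq2 (adjusted p = 0.163 and 0.0797).

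In rods 2 of 7 members were called higher, against 32.0% of all genes: *HPCAL1* by 2.08 (SE 0.23, adjusted p = 5.82e-10 by edgeR) and *PRKCA* by 0.75 (SE 0.21, adjusted p = 0.00339). The value for *PRKCA* weighs each class equally, and pooled over all cells of the other classes the level of rods was instead 0.691 (0.621 to 0.769) times theirs in N350 and 0.211 (0.169 to 0.261) times theirs in N354. The call for *PRKCA* also ended with DESeq2 (adjusted p = 0.243) and with cells of at least 1000 UMIs (adjusted p = 0.432). *CALB1*, *CALB2* and *NRGN* were called lower in rods, where 12.9% of all genes were. In cones 0 of 7 were called higher, where 16% of all genes were, and *CALB2* and *PRKCA* were called lower, where 8.85% were. Between cones and rods, where 20.9% of all genes were called in either direction, 2 of 7 members were called, both lower in cones, *PRKCA* at -2.65 (SE 0.37, adjusted p = 3.42e-07 by edgeR) and *HPCAL1* at -2.33 (SE 0.37, adjusted p = 4.31e-06).

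In Müller glia 1 of 7 members was called higher, *HPCAL1* by 1.40 (SE 0.23, adjusted p = 2.83e-06 by edgeR), where 29.2% of all genes were. *CALB1*, *CALB2*, *CABP5* and *NRGN* were called lower there, where 10.1% of all genes were. The value for *HPCAL1* weighs each class equally. Pooled over all cells of the other classes, the level in Müller glia of N350 was instead 0.983 (0.904 to 1.07) times theirs. In N354 Müller glia read 0.0510, below rods at 0.182 and ON bipolar cells at 0.129. In astrocytes 0 of 7 were called higher, where 21.8% of all genes were, and 6 of 7 were called lower, all but *PRKCA*, where 12.1% of all genes were. Without the dog as a block, the 20 lower calls of members over all classes became 1 and the 17 higher calls became 10. Set against each other, Müller glia and astrocytes differed in 2 of 7 members, where 18.7% of all genes were called in either direction. *HPCAL1* was higher in Müller glia by 2.51 (SE 0.43, adjusted p = 1.67e-05 by edgeR). *VSNL1* was called higher there as well (adjusted p = 0.0451 by edgeR, 0.903 with DESeq2), from 36 UMIs in Müller glia of N350 against 0 in astrocytes, and both classes held 0 in N354.

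**Figure D4:**
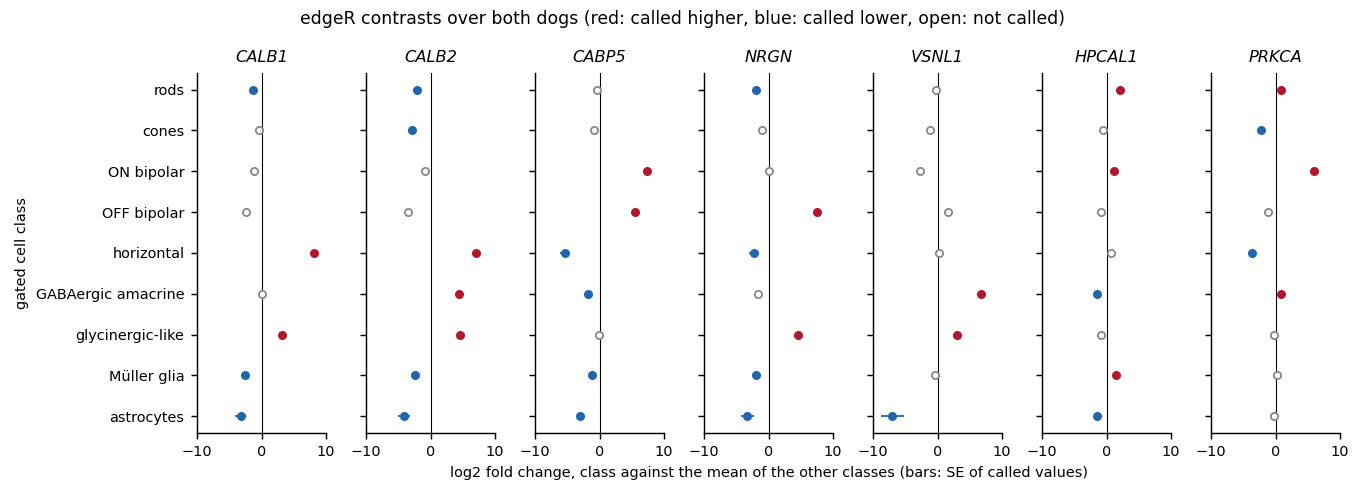
Log2 fold change of each tested member in each class against the mean of the other classes, from edgeR over 2 dogs, with red for called higher, blue for called lower, open points for not called, and bars for the SE of called values, derived from the F value of the test. The largest values are *CALB1* in horizontal cells (8.14), *NRGN* in OFF bipolar cells (7.51) and *CABP5* in ON bipolar cells (7.42), and astrocytes hold no member called higher.

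Set against its classical class, a member was taken to hold where that class had the highest level in both dogs, the exact interval of its ratio to the next class excluded 1 in both dogs, and the contrast of the class was called higher. Of the 8 members with a class set, 3 held, *CALB1* in horizontal cells, *CABP5* in bipolar cells and *PRKCA* in ON bipolar cells. Rod bipolar cells were not gated apart from other ON bipolar cells, so *PRKCA* was not tested as a marker of rod bipolar cells. Both bipolar classes were set for *CABP5*, so its ratio to the next class compared ON with OFF bipolar cells. OFF bipolar cells in turn exceeded their own next class by 32.6 (21.2 to 51.6) in N350 (glycinergic-like neurons) and 77.6 (34.3 to 183) in N354 (rods). *PVALB* met the criteria on levels in N350 and could not be read in N354, so it was not tested. *VSNL1* was called higher in GABAergic amacrine cells and met the criteria on levels in N350, and in N354 the interval of its ratio included 1. *CALB2* was called higher in GABAergic amacrine cells and in glycinergic-like neurons, whose parts differed as given below. Its level was highest in horizontal cells, a class not set for it here. *NRGN* was highest in OFF bipolar cells, and *SCGN* was not detected. These are levels of RNA at the 3′ end, and protein was not measured.

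Parts of the glycinergic-like class differed in which members they held. The class was gated on *SLC6A9*, *EBF3* or *EBF1*, and the split used *TFAP2A* and *TFAP2B*, transcription factors of amacrine cells; it was chosen after values had been seen, so its values are given with no test. In N350, 52 cells with a UMI of either factor read 4.62 for *CALB2* and 0.197 for *NRGN*, and 181 cells without one read 0.523 and 2.38. The ratio of cells with to cells without was 8.82 (6.12 to 13.03) for *CALB2* and 0.0826 (0.0327 to 0.174) for *NRGN*. In N354 the 5 cells with such a UMI read 52.0 for *CALB2* and the 18 without read 1.83, a ratio of 28.5 (14.6 to 63.7), and the 10 UMIs of *NRGN* all lay in cells without. *CALB1* was found in both parts, at 2.93 and 4.17 in N350, a ratio of 0.702 (0.555 to 0.881), and at 5.96 and 6.29 in N354, a ratio of 0.947 (0.475 to 1.81). The ratio in N350 was 5.32 (2.68 to 11.3) for *HPCAL1*, 5.08 (2.16 to 13.3) for *CABP5* and 2.52 (1.35 to 4.75) for *PRKCA*. It was 1.45 (0.415 to 4.77) for *PVALB* and 0.745 (0.421 to 1.27) for *VSNL1*. *HPCAL1* and *CABP5* held 0 UMIs in the class in N354. *TRPM1*, *GRM6* and *C1QL2*, gate genes of other classes, were also higher in cells with a factor UMI of N350, in 4, 4 and 2 of the 52. The part of RNA from other classes was not tested. *SLC6A9*, the glycine transporter, read 5.83 and 4.72 in these parts of N350 and 9.53 and 6.29 in those of N354. *EBF3*, one of the gate's own genes, went the way of *NRGN* in N350, with a ratio of 0.102 (0.0597 to 0.163). In N354 all 5 of its UMIs lay in cells without, and the interval of the ratio ran from 0 to 2.14. Of the 64 cells of the class in N350 that held *CALB2* and the 89 that held *NRGN*, 2 held both. Cells with a factor UMI were deeper, with medians of 6088 against 3441 UMIs in N350 and 5025 against 2768 in N354, and the part of depth in the split was not tested.

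GABAergic amacrine cells of N350 differed in their levels of both buffers, in splits that were also chosen after values had been seen and have no test. The 103 cells with a *PVALB* UMI read 0.872 for *CALB2* and the 61 without read 6.505, a ratio of 0.134 (0.104 to 0.172), although the cells with *PVALB* were deeper, at medians of 8670 and 5144 UMIs. *VSNL1* was also lower in the cells with *PVALB*, at 4.56 against 11.5, a ratio of 0.397 (0.346 to 0.455), and *PRKCA* was higher, at 0.814 against 0.414. *C1QL2*, one of the gate's own genes, read 10.9 and 20.5 in these parts. In the reverse split, the 61 cells with a *CALB2* UMI still read 11.4 for *PVALB*, and the 103 without read 19.7, a ratio of 0.578 (0.525 to 0.635). Both buffers were found in 29 cells. The UMIs were uneven over cells: *PVALB* reached 150 UMIs in 1 cell of this class with a median of 2, and *VSNL1* reached 35 with a median of 2.

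**Figure D5:**
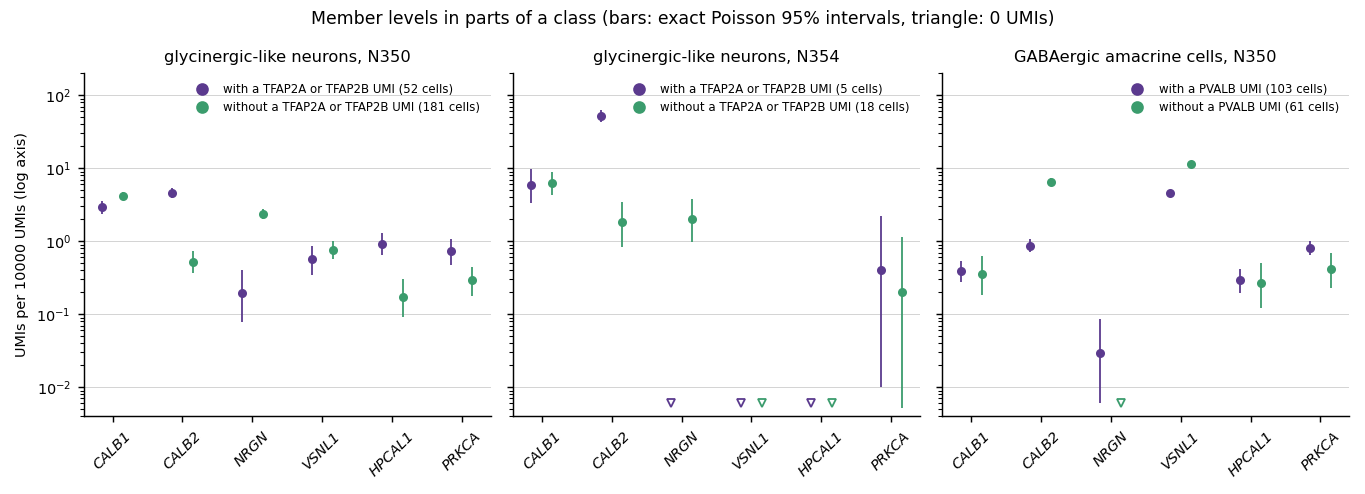
Levels of 6 members, as UMIs per 10000 UMIs on a log axis with exact Poisson 95% intervals, in glycinergic-like neurons of each dog with and without a *TFAP2A* or *TFAP2B* UMI, and in GABAergic amacrine cells of N350 with and without a *PVALB* UMI (triangle: 0 UMIs). *CALB2* is higher in the cells with a factor UMI in both dogs (4.62 against 0.523, and 52.0 against 1.83), *NRGN* is higher in those without, and *CALB1* is found in both.

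ON bipolar cells were split in the same way, after values had been seen and with no test. The 59 of N350 without a *PRKCA* UMI read 9.45 for *CABP5* and the 199 with one read 27.5, a ratio of 2.91 (2.39 to 3.57) for cells with over cells without. In N354 the 53 cells without read 2.75 and the 196 with read 4.998, a ratio of 1.82 (1.24 to 2.75). *TRPM1*, the ON bipolar channel gene that the gate used, moved the same way, with ratios of 3.17 (2.63 to 3.84) and 1.36 (1.23 to 1.501). *GRM6*, the glutamate receptor that the gate also used, had ratios of 0.718 (0.533 to 0.981) and 1.14 (0.816 to 1.64). Cells without *PRKCA* were shallower, at medians of 1592 and 1744 UMIs against 2860 and 2681, and depth was not separated from cell type here.

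The genes whose pattern over the 18 class sums was most like that of a member were found by Pearson's r of log2 levels with a pseudocount of 0.1, centred in each dog, among 8037 genes with at least 50 UMIs in each dog. The sums share libraries and depth, so r is given as a description with no p. For *CALB1* they were *DNAH14* (r = 0.958) and *ALDH3A1* (r = 0.948), both highest in horizontal cells of both dogs, at 1.77 and 3.07 for the first and 5.95 and 6.003 for the second. For *CALB2* they were *BARHL2* (r = 0.973), a transcription factor of amacrine cell development that read highest in horizontal cells of N350 and in glycinergic-like neurons of N354, and *CALY* (r = 0.949), at 23.5 and 46.1 in horizontal cells. *CABP5* was followed by *AIF1* (r = 0.964), a gene used in the microglia gate that read 0.830 and 1.08 in ON bipolar cells, and *CLVS1* (r = 0.955). *NRGN* was followed by *ELAPOR2* (r = 0.903) and *NRP2* (r = 0.892), both highest in OFF bipolar cells of both dogs. *PRKCA* was followed by *GRM6* and *TRPM1* (r = 0.925 for each), which the ON bipolar gate used. The closest genes to *HPCAL1* were *KLC3* (r = 0.800) and *SOS2* (r = 0.776), highest in rods. *VSNL1* held too few UMIs in N354 to be compared.

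A list of 45 related genes (other EF-hand sensors and buffers, S100 proteins, protein kinase C genes and small calmodulin-binding proteins) gave 35 that were tested. Counts of these 35 are given beside the shares of all genes called. In rods 4 were called higher (32.0% of all genes) and 13 lower (12.9%), with a median log2 fold change of -0.89 against 0.24 over all genes. The higher ones were led by *GUCA1B* (4.34, adjusted p = 4.57e-22 by edgeR) and *GUCA1A* (3.89, adjusted p = 2.77e-20), activators of guanylate cyclase in photoreceptors. In cones 5 were called higher (16% of all genes) and 9 lower (8.85%; median -0.83 against -0.03), led by *GUCA1A* (5.12) and *GUCA1C* (9.15), the latter at 1.87 and 1.04 in cones and at most 0.0226 in any other class tested. ON bipolar cells had 5 higher (11.3% of all genes) and 9 lower (5.88%; median -0.85 against -0.0024), among them *PCP4*, a calmodulin-binding protein, at 24.7 and 42.1.

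OFF bipolar cells had 6 related genes called higher (4.47% of all genes) and 1 lower (2.43%; median -0.65 against -0.50), led by *PCP4*, at 29.8 and 52.0, and *CABP2*, a relative of *CABP5*, at 0.844 and 1.28 against 0.133 and 0.0483 in ON bipolar cells. Horizontal cells had 5 higher (15.7%) and 7 lower (10.6%; median -0.80 against -0.10), led by *KCNIP2* (4.13, adjusted p = 8.80e-18 by edgeR), a subunit of A-type potassium channels, and *PRKCB* (2.49). The level of *PRKCB* there, 1.22 and 0.683, was below that of glycinergic-like neurons. GABAergic amacrine cells had 14 higher (20.9%) and 5 lower (7.91%; median 0.56 against 0.12), led by *MARCKS*, a substrate of protein kinase C, at 37.5 and 13.3, and *CALN1*. Glycinergic-like neurons had 15 higher (14.2%) and 4 lower (4.65%; median 0.86 against 0.05), led by *PRKCB*, at 2.93 and 3.22, and *CALN1*, which held 0 UMIs in these cells of N354. Müller glia had 11 higher (29.2%) and 6 lower (10.1%; median 0.11 against 0.16), led by *S100A1*, at 4.89 and 5.56, and *CIB1*, at 1.85 and 1.77. Both genes were higher in astrocytes, where *CIB1* read 3.13 and 3.85. Astrocytes had 11 higher (21.8%) and 7 lower (12.1%; median 0.27 against -0.01), led by *CAPS*, at 16.7 and 16.4 against at most 0.452 in any other class tested, and *S100A1*, at 13.1 and 22.5.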

How the data were processed

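The authors counted reads with Cell Ranger 6.0.2, per the file headers, and deposited, for the barcodes called as cells, a UMI count for every gene that had not been normalized. The study names canFam6, and the dogs list different genes, so names found in both (15224) entered tests. Counts of repeated names were summed. Members and gene lists were chosen with earlier results of these data known. No sequence or coordinate is printed, since the reference used here holds names on another build.

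Cells with at least 200 genes were gated on raw UMIs of marker genes, none of which is a member. Cells in more than 1 gate (160 in N350, 77 in N354) were left out as likely doublets, and 1381 and 232 cells passed no gate. Scrublet's own threshold marked 0% and 0.0455% of cells, so it was an alternative only, with the 4% highest scores removed. No mitochondrial limit was set, because the study's limit of 5%, applied to names that start with MT-, leaves 0 horizontal cells in N354. In N350 only 1 name starts with MT-, and it is not mitochondrial, so limits on that prefix act on N354 alone. The text names all members, the 2 related genes of lowest p per class among those called higher, and the 2 genes most alike in pattern, except 1 related gene in ON bipolar cells that is not reported here. Tests used edgeR 4.0.16 with TMM over genes with at least 10 UMIs (18 class sums, 8 residual degrees of freedom), and DESeq2 1.42.0 as an alternative (R 4.3.3). Shares as counted have exact binomial intervals, and ratios exact conditional ones (Python 3.11.15, scipy 1.17.1). For thinned shares the same formula was given an expected number of cells, not a counted one, so those intervals are approximate. All intervals cover counting error only. A count of 0 allows 3 counts. On simulated counts for ON bipolar cells, with 200 of 10213 genes shifted by 2 on the log2 scale, the test recovered 197 (98.5%) with 13 false calls. The simulated counts held no other difference between classes or dogs, 1 spread for all genes, and shifts in well-counted genes only. They therefore do not give the recovery for members near 0 in most classes or for levels that differ between the dogs. The dog pairs the sums, which come from 1 animal each: over 36 pairs of classes the deviations correlated between 0.380 and 0.812 (median 0.573). Other settings tried were no filter on low counts, no block, a stricter gate, cells with at least 1000 UMIs, limits on mitochondrial UMIs and leaving out each dog.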

Additional observations from a re-analysis of the deposited data

How the results depend on the processing

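Of the 35 contrasts named for members, all 35 kept their direction and call with no filter on low counts. With the 4% highest Scrublet scores removed 34 kept them, and with DESeq2 27 did. Without the replicate block, that is with the dogs unpaired, 14 kept them, 17 pairs of member and class called higher became 10 and 20 called lower became 1, and over all genes and classes calls higher fell from 19987 to 8237 and calls lower from 9119 to 1865. *CALB1* in horizontal cells, *CABP5* and *PRKCA* in ON bipolar cells remained called there. Some settings leave fewer classes with 20 cells in each dog, so fewer pairs could be tested: 10 pairs were called higher with the stricter gate, 5 with less than 5% and 7 with at most 10% of UMIs on MT- names (7095 and 12954 calls higher over all genes), and 8 with at most 10% on all mitochondrial genes (13114 calls), a setting chosen after seeing the data. Calls were also lost among contrasts that could still be run: 4 of 20 with the stricter gate, 2 of 6 with the 5% limit, 1 of 12 with each 10% limit and 2 of 27 with at least 1000 UMIs. Under both 10% limits 1 member, *VSNL1*, met all criteria for its class, since bipolar and horizontal cells of N354 fall under 20 cells. *NRGN* in GABAergic amacrine cells turned to 0.55 and 1.80 under these limits, and at -1.83 passed with cells of at least 1000 UMIs (adjusted p = 0.0458 by edgeR, also chosen after seeing the data). The cause was not tested.

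Leaving out each dog gives values with no test. The yardstick was the SD of the 2 single-dog values, which is not an error of the contrast. Without N350, 6 of 34 contrasts lay closer to the main value than this SD, 26 lay further and 2 reversed. Without N354, 32 of 34 lay closer. These counts show only how near the main value lies to each dog. The single-dog values ran from 7.53 to 10.69 for *CALB1* and 6.54 to 8.29 for *CALB2* in horizontal cells, 7.507 to 8.65 for *NRGN* in OFF bipolar cells, 4.75 to 4.996 and 4.34 to 5.62 for *CALB2* in GABAergic amacrine cells and glycinergic-like neurons, 7.39 to 9.18 and 5.38 to 7.31 for *CABP5* in ON and OFF bipolar cells, 5.58 to 6.91 for *PRKCA* in ON bipolar cells and 6.66 to 7.42 for *VSNL1* in GABAergic amacrine cells. Without N350, *NRGN* in GABAergic amacrine cells turned to 2.11 (-2.40 without N354) and *VSNL1* in glycinergic-like neurons to -2.37 (3.70 without N354). In N350 the level of *CALB1* in horizontal cells was 70.0 with at most 10% of UMIs on mitochondrial genes and 76.7 with the stricter gate, that of *PVALB* there 63.4 and 67.5, and that of *CALB2* in glycinergic-like neurons 1.21 and 0.722. With the stricter gate or cells of at least 1000 UMIs, horizontal cells of N354 fell under 20, and 2 members met all criteria for their class. *VSNL1* and *HPCAL1* held few UMIs in N354, 10 and 93. Over all cells their levels were 0.0103 and 0.0958 there, against 0.880 and 1.29 in N350. The cause of this difference was not tested.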
